A study of Oryctolagus cuniculus with 18 samples.

Results

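Retina and RPE-choroid of non-operated rabbit eyes were compared across genes in 6 of the 18 samples of the series, 3 of each tissue, taken because their labels name the tissue and the non-operated eyes. The animals were male New Zealand White rabbits aged 4 to 6 months, with no transgene and no surgery in the eyes used here. The paper's animal summary lists an operated eye for every case. The sources do not say which animals gave the non-operated eyes, so these may be fellow eyes of operated ones. The other 12 samples came from eyes whose vitreous had been removed and replaced with poly(CEP), a thermogelling polymer, 1 or 2 months earlier. They served only to choose 2 gene lists and for a few values named as such, so that the choice of the list genes did not draw on the 6 samples compared.

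The neural retina holds the photoreceptors, which turn light into an electrical signal, and the neurons and glia that process and carry it. The retinal pigment epithelium (RPE) is a single pigmented layer behind the photoreceptors that recycles visual pigment, takes up shed outer segments and forms a barrier to the blood. The choroid behind it is a vascular layer with endothelium, pericytes, fibroblasts, melanocytes and immune cells. In the labels the latter samples are called retinal pigment epithelium, whereas they were collected as patches of RPE together with choroid, peeled off the sclera after the retina had been pulled away. The patches therefore pooled several cell types, and in such bulk samples fewer cells of a type and less RNA per cell cannot be told apart.

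Counts on genes ranged from 26732449 to 33505730 per sample, and reads aligned to several places made up 8.03% to 9.38% of all reads. The 10 most abundant genes took 8.31% to 8.59% of the gene counts in retina and 6.47% to 6.99% in RPE-choroid. Of the 29587 genes in the file, 6888 had no count in any of the 6 samples and 15727 passed the filter on low counts. Genes are given by Ensembl identifier alone, because the names table used here matched 0 of the identifiers. The markers of photoreceptors, RPE and choroid could for this reason not be looked up, and the tissue labels were not checked against them.

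One tissue had far less even samples than the other. The common biological coefficient of variation, which expresses the spread of a gene between replicates as a share of its level, was 0.192 in retina and 0.507 in RPE-choroid. Between any 2 retina replicates the median absolute log2 difference of a gene was 0.191 to 0.24, and between 2 RPE-choroid replicates it was 0.303 to 0.594. No pair of replicates differed by as little as sampling noise, since the lowest chi-square per degree of freedom was 30.7.

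RPE-choroid replicate 3 stood closest to retina and replicate 2 farthest from it. Across the tested genes, the Spearman correlation with the 3 retina samples was 0.897 to 0.903 for RPE-choroid replicate 3, 0.803 to 0.809 for replicate 1 and 0.676 to 0.685 for replicate 2. These are correlations across genes within a few libraries, and genes are not independent replicates. The fits over all 6 samples pool these 3 unequal samples, and the retina-high genes are also given for each of them.

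A retina-high list was made of the 200 genes with the largest excess of mean log2 CPM (counts scaled to a common library size) in retina over RPE-choroid in the 12 poly(CEP) samples, with a minimum mean log2 CPM of 5 in retina, and an RPE-choroid-high list of 200 genes was made in the same way in the other direction. The mean log2 CPM of the retina-high list was 7.47, 7.41 and 7.39 in retina replicates 1, 2 and 3. It was 5.29, -0.07 and 6.59 in RPE-choroid replicates 1, 2 and 3. The groups did not overlap, but RPE-choroid replicate 3 lay much nearer to retina than to RPE-choroid replicate 2.

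The tissue means of the retina-high list were 7.42 ± 0.04 in retina and 3.94 ± 3.53 in RPE-choroid (SD, n = 3 each), a difference of 3.49 on the log2 scale with a two-sided exact permutation p of 0.1, the smallest that 3 against 3 samples can give. These 200 genes took 11.9% to 12.1% of the gene counts in the retina samples. They took 2.41%, 0.0797% and 7.1% of the counts in RPE-choroid replicates 1, 2 and 3.

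The RPE-choroid-high list showed a wider gap and even retina samples. Its mean log2 CPM was 7.48, 7.90 and 6.41 in RPE-choroid replicates 1, 2 and 3 and -0.22, -0.23 and -0.11 in retina replicates 1, 2 and 3. The order of the RPE-choroid samples was the reverse of that for the retina-high list, with replicate 2 highest and replicate 3 lowest. Retina minus RPE-choroid was -7.45 on the log2 scale (7.26 ± 0.77 in RPE-choroid against -0.19 ± 0.07 in retina, SD, n = 3 each), again with an exact permutation p of 0.1, the smallest possible. These genes took 8.38%, 10.8% and 4.18% of the counts in RPE-choroid replicates 1, 2 and 3 and between 0.0451% and 0.0484% in retina.

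**Figure D1:**
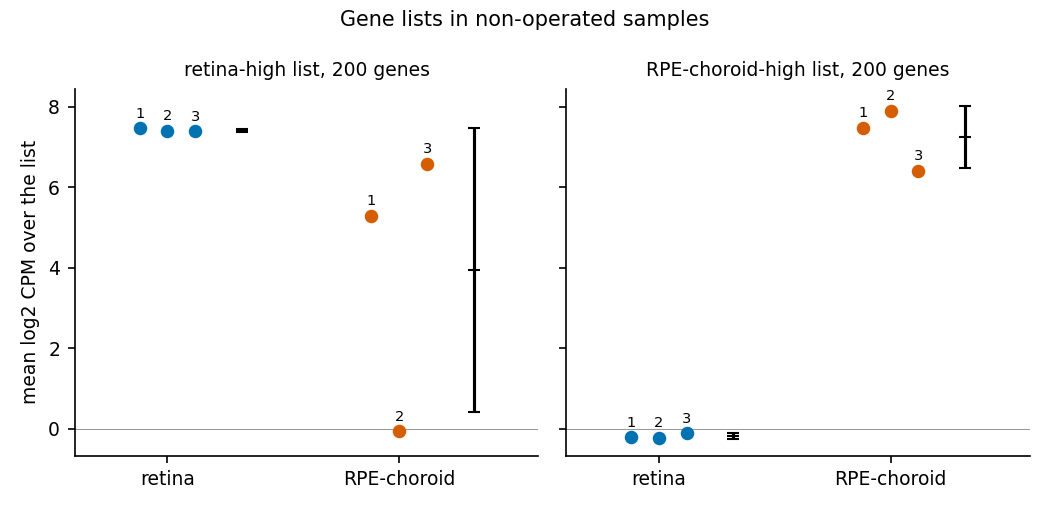
Mean log2 CPM of the retina-high list (left) and the RPE-choroid-high list (right), 200 genes each, in the 3 retina samples (blue) and the 3 RPE-choroid samples (orange) of non-operated eyes; points are samples with their replicate number and the bars beside them the mean ± SD. The RPE-choroid samples run from -0.07 to 6.59 for the retina-high list, whereas the 3 retina samples lie within -0.23 to -0.11 for the RPE-choroid-high list.

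Across all genes, the comparison asked how far the tissues differ in non-operated eyes, and it returned many more genes higher in RPE-choroid than in retina. At an adjusted p under 0.05 (edgeR's quasi-likelihood test, Benjamini-Hochberg adjustment over all 15727 genes), 674 genes were higher in retina, which is 4.29% of those tested, and 3754 were higher in RPE-choroid, which is 23.9%. With a difference of more than 2-fold required as well, 277 genes (1.76%) were higher in retina and 3066 (19.5%) in RPE-choroid. At an unadjusted p under 0.05 the counts were 2389 (15.2%) and 4643 (29.5%).

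The split between the 2 directions depended on the fit. The counts above took the samples as unpaired, although same-numbered samples of the 2 tissues deviated together from their tissue means. With the replicate number as a block, 339 genes were higher in retina (2.16% of those tested) and 2961 in RPE-choroid (18.8%), and 157 (0.998%) and 2599 (16.5%) were so by more than 2-fold. With RLE factors in place of TMM the counts were 1215 (7.73%) and 3520 (22.4%), and with upper-quartile factors, which moved the median log2 difference of all genes from 0.01 to 0.17, they were 1677 (10.7%) and 3297 (21%). RPE-choroid had the larger count under each of these scalings.

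The genes higher in RPE-choroid were also called at much larger differences. Their median log2 difference was -2.28, against 0.90 for the genes higher in retina. More than 8-fold differences that passed the test numbered 1437 in favour of RPE-choroid and 21 in favour of retina. Beyond 32-fold the counts were 681 and 11, or 652 and 9 when genes without a count in one tissue were set to the limit that 3 counts over its 3 samples allow. Of the genes that passed, 103 had no count in any retina sample and 4 had no count in any RPE-choroid sample.

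Counting genes by presence gave the same asymmetry without a model. There were 303 genes with at least 10 counts in every RPE-choroid sample and at most 3 in each retina sample, and 17 genes with the opposite pattern. Taken 1 sample at a time, the genes with at least 10 counts in every retina sample and at most 3 in the RPE-choroid sample numbered 62 for replicate 1, 605 for replicate 2 and 28 for replicate 3. The corresponding counts for retina replicates 1, 2 and 3, with genes present in every RPE-choroid sample, were 469, 499 and 443. RPE-choroid replicate 2 alone thus lacked more retina genes than any retina sample lacked RPE-choroid genes, while replicates 1 and 3 lacked few.

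The larger number of calls in RPE-choroid held at every level of expression. Among genes with a fitted mean log2 CPM below 1, 2.52% were higher in retina and 19.3% in RPE-choroid. Above a log2 CPM of 7 the shares were 5.42% and 24.5%. In the 3 levels between them, 2.45% to 5.93% of genes were higher in retina and 24% to 25.5% in RPE-choroid.

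**Figure D2:**
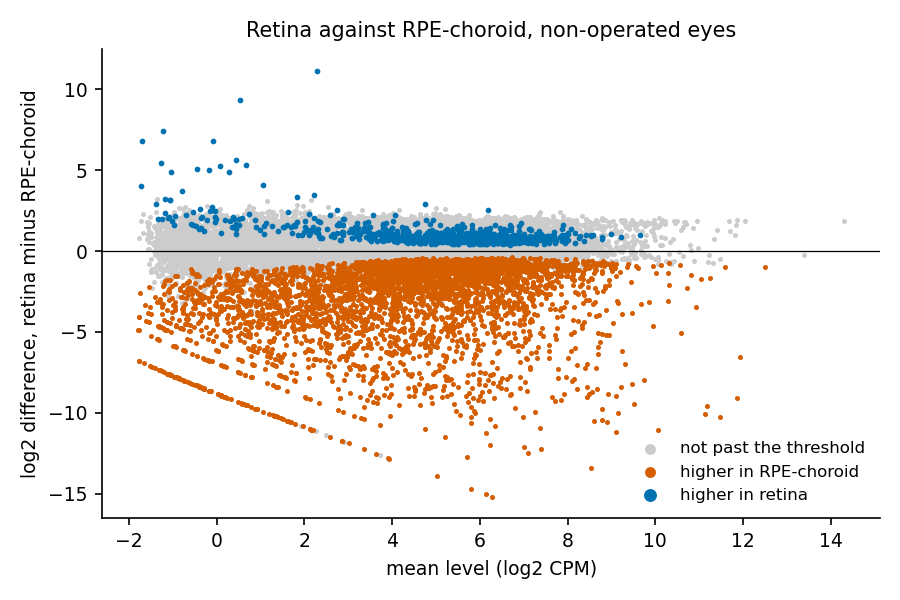
Log2 difference (retina minus RPE-choroid) against the mean log2 CPM of each of the 15727 tested genes, with genes at an adjusted p under 0.05 in blue (674, higher in retina) or orange (3754, higher in RPE-choroid) and the others in grey. Grey points fill the band up to about 2 log2 units on the retina side at every level, the lower edge of orange points holds genes with few or no retina counts, and the largest called difference towards retina is 11.16.

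The share of genes that passed the test rose with the size of the difference in every step on the RPE-choroid side. On the retina side it rose, fell and rose again. For differences up to 0.5 on the log2 scale, 1.62% of 2898 genes higher in RPE-choroid and 1.18% of 3806 genes higher in retina passed. Between 0.5 and 1, 44.5% of 1442 genes higher in RPE-choroid passed and 19.3% of 1820 genes higher in retina. Between 1 and 2, the shares were 77.4% of 1277 genes and 11.3% of 2016 genes. Between 2 and 4, they were 94.8% of 1136 genes and 11% of 308 genes. Beyond 4, 99.1% of 1009 genes passed on the RPE-choroid side, and all 15 genes on the retina side.

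On the retina side, a gene could thus separate the samples and still miss the threshold. Of the 2016 genes between 1 and 2 log2 units higher in retina, 1728 had every retina sample above every RPE-choroid sample, and 228 passed. Over all genes tested, such a separation held for 4397 genes with retina above (28%) and for 5135 with RPE-choroid above (32.7%). The median standard error of the log2 difference was 0.71 for genes estimated at more than 2-fold higher in retina, 0.42 for those estimated at over 2-fold in favour of RPE-choroid and 0.19 for genes within 2-fold. Retina-high genes were therefore measured with the widest error.

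**Figure D3:**
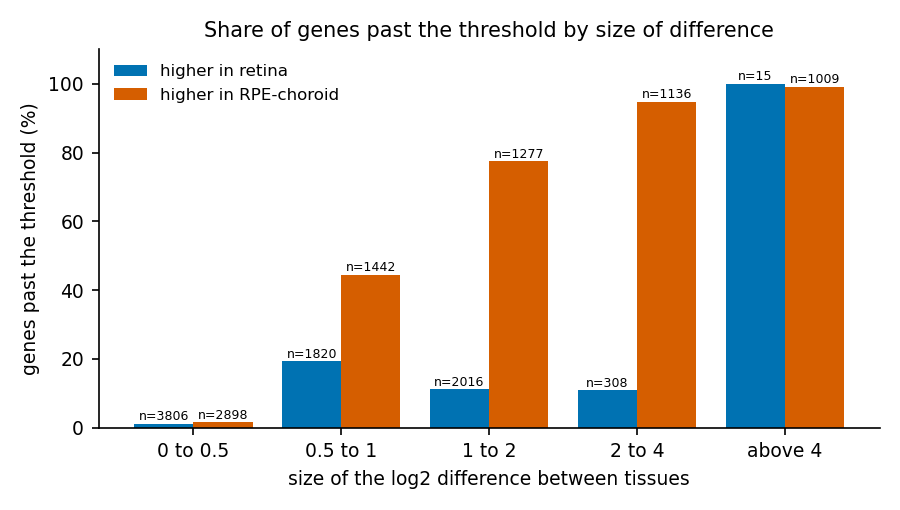
Percent of genes at an adjusted p under 0.05 by the size of their log2 difference, for genes estimated higher in retina (blue) and in RPE-choroid (orange), with the number of genes above each bar. The orange bars climb from 1.62% to 99.1%, whereas the blue bars stay at or under 19.3% up to a difference of 4 and reach 100% for the last 15 genes.

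For 5833 genes (37.1% of those tested), the 95% interval of the log2 difference lay inside 2-fold of equality in either direction. For the others that did not pass the test, the data bound the difference less tightly, and a p that misses the threshold does not show that the tissues were alike.

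The genes of the retina-high list were all estimated higher in retina and almost none passed the test. Of the 200, 198 had every retina sample above every RPE-choroid sample, beside 28% of all genes, and 3 passed, beside 4.29% of all genes tested. Their median log2 difference was 1.89 (quartiles 1.80 and 2.00), beside 0.01 over all genes, with a median standard error of 1.27 and a median adjusted p of 0.274 (edgeR). That median was 2.91 with the replicate block, where 2 of the 200 passed. Of the RPE-choroid-high list, 199 of 200 passed, beside 23.9% of all genes, and all 200 were separated, with a median log2 difference of -7.78 (quartiles -8.87 and -6.18) and a median standard error of 0.59. Setting the 3 of these genes that had no retina count to their limit left that median at -7.78.

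The spread within each tissue differed along the same lines. The coefficient of variation over the retina-high list was 0.126 between retina samples and 1.63 between RPE-choroid samples. Over the RPE-choroid-high list it was 0.395 in retina and 0.545 in RPE-choroid, and over the 15327 genes in neither list 0.191 and 0.463. The fit shares 1 estimate of the spread per gene between the tissues. In limma-voom each tissue had 1 weight for all its genes, and the tissues still shared the spread of a gene apart from that weight. With it, 1876 genes were higher in retina (11.9% of those tested) and 3886 in RPE-choroid (24.7%). Of the retina-high list, 26 genes passed, with a list median of 3.42. That fit also works on log2 CPM in place of counts, and the 2 changes were not told apart.

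The 3 genes of the retina-high list that passed differed in how even their RPE-choroid levels were. The most precise of them had 52.2, 41.4 and 48.9 CPM in retina replicates 1, 2 and 3 and 5.97, 6.97 and 6.05 CPM in RPE-choroid replicates 1, 2 and 3. Its level in RPE-choroid did not follow the order of the other list genes, and it differed by 2.91 ± 0.16 (SE) on the log2 scale with an edgeR adjusted p of 0.00068. The other 2 were less even, ranging from 12.7 to 35.7 CPM and from 1.21 to 7.74 CPM over the RPE-choroid samples. They had adjusted p values of 0.00948 and 0.0449 in the same edgeR fit. The second of these 2 was lowest in replicate 2 and highest in replicate 3, as were the other list genes for the most part.

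Of the genes with the strongest excess in the poly(CEP) samples, ENSOCUG00000004098 had 274, 274 and 264 CPM in retina replicates 1, 2 and 3. In RPE-choroid replicates 1, 2 and 3 it had 59.5, 0.147 and 108 CPM. Every retina sample lay above every RPE-choroid sample, and RPE-choroid replicate 2 lay far below the other 2 RPE-choroid samples. The fitted difference was 2.28 ± 1.52 (SE), with a 95% interval from -1.45 to 6.01 and an edgeR adjusted p of 0.271.

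The second retina-high identifier, ENSOCUG00000021430, had 467, 595 and 531 CPM in retina replicates 1, 2 and 3 and 112, 2.38 and 236 CPM in RPE-choroid replicates 1, 2 and 3. The order of the RPE-choroid samples was the same as for the first. Its difference was 2.18 ± 1.27 (SE), with a 95% interval from -0.93 to 5.30 and an edgeR adjusted p of 0.22. Neither gene was called, although in both the mean retina level was several times the mean RPE-choroid level.

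On the other side, ENSOCUG00000016890 had 369, 481 and 166 CPM in RPE-choroid replicates 1, 2 and 3, and only 3, 2 and 1 counts in retina replicates 1, 2 and 3. ENSOCUG00000025675 had 916, 875 and 445 CPM in RPE-choroid and 1, 0 and 5 counts in retina, in the same order. Both were lowest in RPE-choroid replicate 3, and neither had more than a trace of reads in retina. The fitted log2 differences were -12.25 ± 0.68 (SE) and -13.39 ± 0.94 (SE), with edgeR adjusted p values of 0.00068 and 0.000915, and at so few retina counts their size depends on the small count that the fit adds.

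To express how much of the retina pattern each RPE-choroid sample carried, the CPM of every retina-high gene was divided by its mean in the 3 retina samples. The median over the list was 22.4% in RPE-choroid replicate 1 (quartiles 20.7% and 24.9%), 0.543% in replicate 2 (quartiles 0.223% and 0.948%) and 57.1% in replicate 3 (quartiles 51.1% and 62.9%). A gene's own expression in RPE or choroid adds to such a percentage, so it is an upper estimate of retina RNA in the sample. The opposite measure, RPE-choroid-high genes in retina, gave 0.434%, 0.452% and 0.46% in retina replicates 1, 2 and 3. This low percentage depended on the list, and over the 3 samples it ran from 0.0773% with 50 genes to 4.89% with a minimum log2 CPM of 7.

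In RPE-choroid replicates 1 and 3 the percentage was nearly the same from gene to gene. In replicate 1, 197 of the 200 genes lay within 1.5-fold of the median percentage, and in replicate 3 the number was 194. The ratio of the upper to the lower quartile was 1.21 in replicate 1 and 1.23 in replicate 3. When each retina sample was set against the other 2 retina samples in the same way, that ratio was 1.13 to 1.24. In replicate 2 the ratio was 4.25 and 68 genes lay within 1.5-fold. The list genes of replicates 1 and 3 thus varied around a common percentage about as much as retina samples vary from each other.

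The order of the samples was shared by almost the whole list. Replicate 1 had a lower percentage than replicate 3 for 199 of the 200 genes, and replicate 2 a lower one than replicate 1 for 199. In replicate 2, 19 of the genes had no count and 4 exceeded 5% of the retina level. Which genes had the higher percentages in replicate 1 was unrelated to which had them in replicate 3 (Spearman 0.033 over the 200 genes, as a description, since both are divided by the same retina means). By their titles, the 3 RPE-choroid samples belong to 1 group. Whether retina tissue left on the patches or transcription within RPE and choroid set these levels was not tested.

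**Figure D4:**
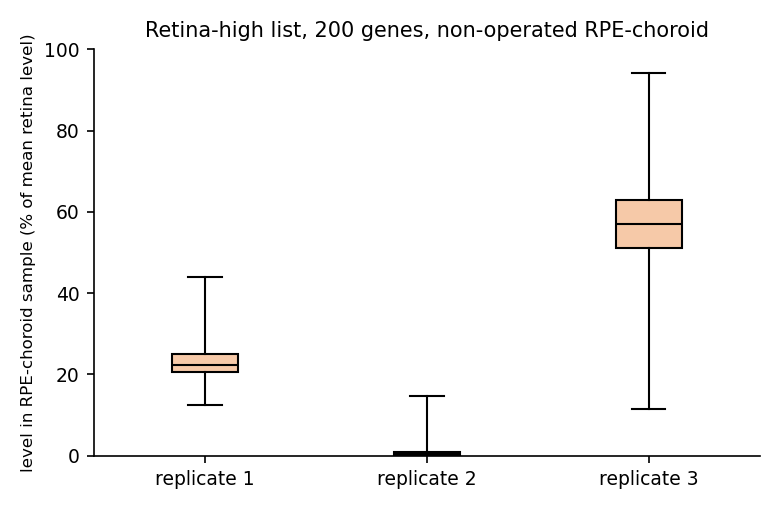
CPM of each of the 200 retina-high genes in an RPE-choroid sample, as a percent of its mean in the 3 retina samples, with the median (line), the quartiles (box) and the lowest and highest gene (whiskers) for each replicate. The boxes of replicates 1 and 3 are narrow and far apart, at medians of 22.4% and 57.1%, and replicate 2 lies at 0.543%.

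A gene present at a given percentage of its retina level can show at most a fixed difference between the tissues. At the median percentage, this limit was 2.16 on the log2 scale for RPE-choroid replicate 1, 7.53 for replicate 2 and 0.81 for replicate 3. The median difference of the retina-high list from the retina mean was 2.15, 7.47 and 0.80 for replicates 1, 2 and 3. These medians restate the limits, because both come from the same ratios of the same genes. For the RPE-choroid-high list, the medians were -7.67, -8.12 and -6.75. The 3 medians of the retina-high list thus lay more than 6 log2 units apart at their extremes, replicates 2 and 3, and those of the RPE-choroid-high list less than 2.

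The 15327 genes outside the lists were counted for 1 RPE-choroid sample at a time and with no test. Against replicate 2, 1150 of them were more than 8-fold higher in the mean of retina and 1458 more than 8-fold higher in RPE-choroid. Against replicate 1, the counts were 41 and 1232, and against replicate 3 they were 17 and 798. Only replicate 2 gave similar numbers in both directions. More than 2-fold differences numbered 3372 towards retina and 3776 towards RPE-choroid in replicate 2, 2351 and 3400 in replicate 1, and 420 and 2460 in replicate 3.

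Sorting genes by their difference in replicate 2 showed the narrowing at each size. The 388 genes more than 6 log2 units higher in retina against replicate 2 had a median of 7.14 there, 2.13 against replicate 1 and 0.79 against replicate 3. The 503 genes between 4 and 6 had medians of 4.92, 1.99 and 0.76, in the same order of samples. The 1191 genes between 2 and 4 had medians of 2.77, 1.52 and 0.58. The larger the difference seen with replicate 2, the nearer the other samples came to a flat line at their own limit. Replicate 2 formed these groups, so some narrowing would follow from the grouping itself.

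On the RPE-choroid side, the lines did not flatten, and replicates 1 and 3 moved farther from replicate 2 as the difference grew. The 425 genes more than 6 log2 units higher in RPE-choroid replicate 2 had a median of -7.40 there, -6.83 against replicate 1 and -5.85 against replicate 3. The 661 genes between 4 and 6 had medians of -4.81, -4.37 and -3.51, in the same order of samples. The 1386 genes between 2 and 4 had medians of -2.80, -2.43 and -1.73. The 1504 genes between 1 and 2 had medians of -1.42, -1.13 and -0.67. In the test over all 6 samples, 98.8% of the first group passed, and 1 of the 388 genes farthest towards retina did (0.258%). Replicate 2 both formed the groups and entered the test, so these shares are a description.

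**Figure D5:**
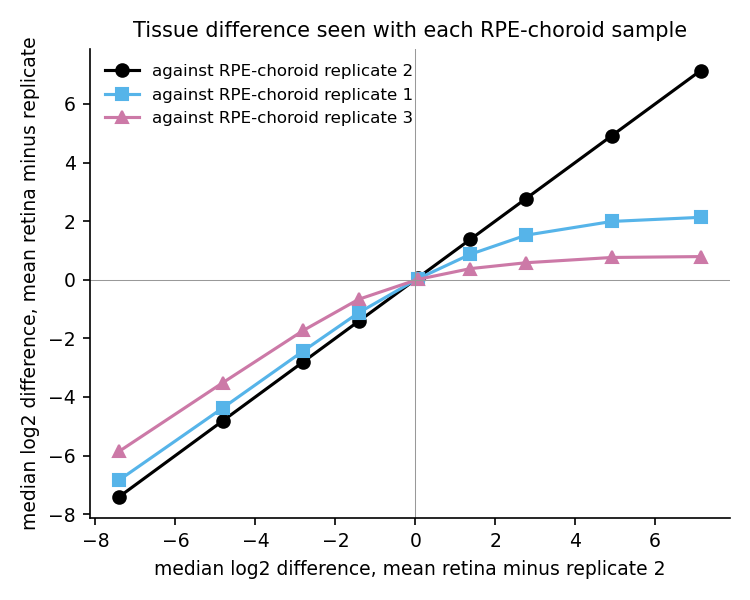
Median log2 difference of the mean retina level from each RPE-choroid replicate (vertical axis) for genes grouped by their difference from RPE-choroid replicate 2 (horizontal axis), both as log2 units of retina minus RPE-choroid. On the retina side the lines for replicates 1 and 3 flatten at 2.13 and 0.79 where replicate 2 reaches 7.14, and on the RPE-choroid side they end at -6.83 and -5.85 where replicate 2 reaches -7.40.

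A mixture of replicate 2 with the mean retina profile was set beside replicates 1 and 3, using the percentages above as the retina share and only the 15327 genes in neither list. For replicate 1, the median absolute log2 difference of a gene from the mixture was 0.15, and 0.247 from replicate 2 alone. For replicate 3, it was 0.137 from the mixture and 0.468 from replicate 2 alone. Retina samples differed from the other 2 retina samples by 0.127 to 0.164 on the same measure, and both medians lay within that range. Of the genes tested, 8179 lay within 1 log2 unit of retina in replicate 2. For such genes the share moves the mixture little. At the upper decile of genes, the difference from the mixture was 0.49 for replicate 1 and 0.442 for replicate 3. Between retina samples it was 0.386 to 0.453, so replicate 1 lay above that range and replicate 3 within it. For the RPE-choroid-high list, a loss of -0.37 and -1.22 log2 units would follow from the shares alone, and the median change from replicate 2 was -0.39 in replicate 1 and -1.40 in replicate 3. The genes of that list differed from the mixture by a median of 0.246 in replicate 1 and 0.31 in replicate 3. With the sign kept, these medians were -0.03 and -0.2. Whether retina RNA in the samples caused the likeness to a mixture was not tested.

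Subtracting each share times the mean retina profile removed 20.6%, 0.482% and 56% of the counts of RPE-choroid replicates 1, 2 and 3. The median SD of a gene over the RPE-choroid samples then fell from 0.355 to 0.296 log2 units for genes in neither list. After it, 3981 genes were higher in retina (25.2% of 15772 tested) and 4771 in RPE-choroid (30.2%), and 130 genes of the retina-high list passed with a median log2 difference of 5.70. The list genes themselves set the shares that were subtracted, so their larger difference follows in part from the method. The subtraction also lowers every retina-expressed gene in RPE-choroid, by a profile from the same retina samples used in the test. The larger count of genes higher in retina therefore follows in part from the method too, and is not a measured tissue difference.

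The number of genes higher in retina changed with each sample left out, in either tissue. Without RPE-choroid replicate 3, 3116 genes were higher in retina (19.4%) and 7 of the retina-high list passed, with a median of 3.10. Without replicate 2, there were 983 (6.15%) and 98 of the list passed, although their median was only 1.32. Without replicate 1, 41 genes (0.256%) and 2 of the list passed. Without retina replicates 1, 2 and 3 in turn, the counts were 37 (0.23%), 91 (0.564%) and 103 (0.641%), so the number fell whichever was left out. Each of these fits had 1 sample fewer, and the effect of that was not told apart from the sample itself.

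The number higher in RPE-choroid moved less. It was 4777 (29.7%) without RPE-choroid replicate 3, 3281 (20.5%) without replicate 2 and 2382 (14.9%) without replicate 1. Without retina replicates 1, 2 and 3 in turn it was 2171 (13.5%), 2310 (14.3%) and 2164 (13.5%). The RPE-choroid direction kept the larger count in each of these 6 fits.

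The 674 genes that did pass towards retina were for the most part not the genes with the strongest retina excess. Their median level in RPE-choroid replicates 1, 2 and 3 was 51.4%, 41% and 67.7% of the retina mean, so in most of them RPE-choroid replicate 2 also held a good part of the retina level. In 491 of them the highest of the 3 percentages was no more than 2-fold the lowest, and 397 differed by at most 2-fold between tissues. Only 3 belonged to the retina-high list. With the replicate block, 202 of the 674 were called among 339 genes. The 339 had similar levels, with medians of 49.9%, 38.6% and 69% of the retina mean in RPE-choroid replicates 1, 2 and 3, and 2 of them belonged to the list.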

How the data were processed

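Per the labels and the methods of the study, RNA was sequenced from retina and RPE-choroid in biological triplicate, with a directional library kit. Raw HTSeq counts per Ensembl gene were deposited by the authors, who had used Trim Galore for trimming and HISAT2 for alignment to OryCun2.0. The build is taken from the methods and the rabbit identifiers, whereas the processing fields of the labels name human builds. Tool versions and the strand setting are not given in the sources used here, so reads of overlapping antisense genes may be shared. The 5 HTSeq summary entries were left out of library sizes and tests. Non-operated RPE-choroid replicate 2 carries a slightly different sample code in its label than in the counts, and was matched by its title. Reads on genes made up 47.4% to 53.4% of all reads.

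The 6 samples were fitted with edgeR 4.0.16 in R 4.3.3 (TMM factors, filterByExpr at min.count 10 and min.total.count 15, quasi-likelihood F test with robust dispersions, two-sided). Genes were called at a Benjamini-Hochberg adjusted p under 0.05. The standard error is the log2 difference divided by the square root of F. CPM values use the same factors, and log2 CPM adds a prior count of 2. The difference is retina minus RPE-choroid throughout. Depth was close to even, so the spread between replicates limits most values, and p-values measure that spread. The scripts were tested on simulated data.

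Same-numbered samples of the 2 tissues deviated together from their tissue means (correlation over genes 0.401, 0.171 and 0.152 for numbers 1, 2 and 3, and -0.195 to -0.043 between different numbers), and were taken as paired from the data, the labels giving the numbers alone. The replicate block is the alternative fit. Standard errors, intervals, size bands and the p-values of single genes come from the fit without the block, which ignores this pairing. The exact permutation p-values of the 2 lists shuffled all 6 samples freely and ignored the pairing as well. A paired permutation was not run. Other alternatives were DESeq2 1.42.0, limma-voom (limma 3.58.1), other factors, other filters, all 18 samples in one fit, subtraction of the retina share, other list sizes and each sample left out. The members and lists were chosen with earlier results of these data known. The 4 identifiers named are, in each direction, the 2 genes with the largest difference in the 12 poly(CEP) samples at a mean log2 CPM of at least 8. Planned cell type markers could not be matched and are not reported.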

Additional observations from a re-analysis of the deposited data

Results flagged for a closer look

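The RPE-choroid samples of poly(CEP) eyes take no part in the comparison, and 1 of them held more of the retina pattern than any non-operated sample. With all 18 samples scaled together, the retina-high list stood at 63.9% of its retina level in replicate 2 at 1 month, above the highest non-operated RPE-choroid sample at 54.8% (replicate 3). The other 1-month samples were at 51.8% and 34.3%, and the 2-month samples at 15.5%, 15.4% and 0.228%. The list was chosen on these poly(CEP) samples, and the reference is the mean of the 3 non-operated retina samples.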

How the results depend on the processing

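The larger count towards RPE-choroid held under every alternative run, and the counts of genes over 2-fold in favour of RPE-choroid and of genes within 2-fold of equality stayed within 1.5 times their value. Genes higher in retina, and those more than 2-fold so, numbered 2582 and 1217 with DESeq2, 339 and 157 with the replicate block (paired by number), 1215 and 457 with RLE factors, 1677 and 616 with upper-quartile factors, 2581 and 1137 with all 18 samples in one fit, 1876 and 1216 with limma-voom weights per tissue, and 3981 and 2572 after subtraction. With 1 sample left out they ranged from 37 to 3116 and from 32 to 1882, and genes higher in RPE-choroid from 2164 to 4777. The block took no other count past 1.5 times. The retina-high median became 5.70 after subtraction, 2.91 with the block and 3.42 with limma-voom weights, and the RPE-choroid-high median -6.59 with at least 10 counts in every sample, a filter that leaves 123 of its genes. The cause of these changes was not tested. The retina share of RPE-choroid replicate 2 was 0.137% with 50 genes, 1.75% with 500 and 1.5% with a minimum log2 CPM of 7, and that of replicate 3 was 51.0% with 50 genes. The RPE-choroid share of retina replicates 1, 2 and 3 was 0.0773%, 0.0812% and 0.107% with 50 genes, 3.16%, 3.30% and 2.99% with 500, and 4.53%, 4.89% and 4.23% with the minimum of 7. With 3 samples per tissue, a single value cannot reach an exact p under 0.1 in a permutation that ignores the pairing.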

Other observations

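A small group of genes did not follow the common percentage in RPE-choroid replicate 3. Of 896 genes with a mean of at least 1 CPM in retina and at most 5% of that level in RPE-choroid replicate 2, the median level in replicate 3 was 57.6% of retina (quartiles 50.3% and 65.7%) and in replicate 1 23.4%. In 12 of them (1.34%) replicate 3 stood under 10%. They were low genes, with 1.29 to 9.63 CPM in retina and 119 to 890 counts over the 3 retina samples, and none was in the retina-high list. In 2 of them the level differed more between replicates than between tissues, and neither passed the test (log2 differences of 1.75 and -0.13). The 12 were chosen after their values were seen, and their number was 14 with a limit of 20%, 2 with a minimum of 5 CPM and 16 with a minimum of 0.5 CPM.

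Of these 12 genes, 10 passed the edgeR test towards retina, against 3 of the other 884 (0.339%), and 2 had no count in any RPE-choroid sample. The choice of a low level in RPE-choroid replicate 3 fixes much of that contrast. In RPE-choroid of poly(CEP) eyes at 1 month, which had no part in the choice, the 12 genes stood at a median of 2.61%, 2.98% and 3.29% of the 1-month retina level in replicates 1, 2 and 3, and the other 884 at 68%, 81.6% and 45.6%. Of the 12, 9, 7 and 9 stood under 10% in these samples, and 7 did so in all 3.

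Some genes were high in a single sample of a tissue, and a few of them stood out under the same replicate number in both tissues. With a limit of more than 4-fold above both other samples on log2(CPM + 1), and at least 1 CPM, 5 genes stood out in replicate 1 of both tissues, 4 in replicate 2 of both and 3 in replicate 3 of both. Of the 6 combinations of different numbers, 1 held a gene and the others held none. The limit was chosen after the data were seen. Retina replicates 1, 2 and 3 had 7, 8 and 4 such genes in all, and RPE-choroid replicates 1, 2 and 3 had 12, 40 and 13. The labels do not say whether same-numbered samples came from the same eye.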
